A study of Mus musculus with 30 samples.

Results

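Myeloid C-type lectin receptors are cell surface proteins of neutrophils, monocytes, macrophages and dendritic cells that carry a C-type lectin-like domain. Clec4a1, Clec4a2, Clec4a3, Clec4d, Clec4e, Clec4n, Clec5a, Clec10a, Clec12a and Cd209a were taken by gene symbol from the array annotation, 10 of the 19479 genes that the array names by a single symbol. Each of them had exactly 1 transcript cluster, the unit in which the array summarises a gene. Their log2 intensities were followed on 30 Affymetrix Clariom HT arrays of cells sorted from the ischemic hemisphere of the mouse brain. The mice were C57BL/6 males aged 8 to 10 weeks, and all of them, control animals included, had a middle cerebral artery occluded for 45 min (MCAo) and were perfused 48 h after blood flow was restored. TREM1-/- mice are called KO below and TREM1+/+ mice WT, and the study asks what loss of the receptor TREM1 changes in 3 kinds of myeloid cell. There were 5 KO and 4 WT neutrophil arrays (cells with high CD45, CD11b and Ly6G), 6 KO and 3 WT macrophage arrays (high CD45 and CD11b without Ly6G), and 6 KO and 6 WT microglia arrays (low CD45 with CD11b). The labels also write the microglia gate as Ly6G positive. They do not say how Trem1 was deleted, whether cells of several mice were pooled, or whether arrays were run in batches, and no Cre or transgene is named. Arrays of a group are labelled biological replicates, and their number limits the precision of every value. The p-values set a difference against the spread between these samples.

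These receptors split by what their cytoplasmic side does. Clec4d (MCL), Clec4e (Mincle) and Clec4n (Dectin-2) pair with the Fc receptor gamma chain, and Clec5a (MDL1) pairs with the adaptors DAP12 and DAP10; both routes lead to the kinase SYK and, through CARD9, to inflammatory gene expression. TREM1 signals through DAP12 as well. Clec4a2 (DCIR) and Clec12a (MICL) carry an inhibitory tyrosine motif that recruits phosphatases, while Clec10a (MGL1) and Cd209a, a mouse relative of human DC-SIGN, are sugar-binding uptake receptors of macrophages and dendritic cells.

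Most of the genes are neighbours. By RefSeq gene order (GRCm38.p6), 8 of the 10 are on chromosome 6, Clec10a is on chromosome 11 beside Mgl2, and Cd209a is on chromosome 8 between Clec4g and Cd209e. The stretch from Clec4a1 to Clec4e holds 9 coding genes in a row, 6 of them described here, and ends with Clec4n, Clec4d and Clec4e side by side. Promoter sequence from RefSeq (GRCm38.p6), the 250 bases before an annotated start, was found for 8 of the 10 genes in 9 windows, and 4 windows are shown. Clec4d and Clec4e are shown because these adjacent genes were highest in neutrophils and far lower in microglia, and Clec5a and Clec4a3 because they are the genes that differed between KO and WT neutrophils. Clec4a3 has 2 annotated starts and the downstream one is given. The sequences run 5′ to 3′ on the gene's own strand. Capitals mark any match, on either strand, to the motifs named after the sequences.
Clec4d, chr6:123261857-123262106, plus strand: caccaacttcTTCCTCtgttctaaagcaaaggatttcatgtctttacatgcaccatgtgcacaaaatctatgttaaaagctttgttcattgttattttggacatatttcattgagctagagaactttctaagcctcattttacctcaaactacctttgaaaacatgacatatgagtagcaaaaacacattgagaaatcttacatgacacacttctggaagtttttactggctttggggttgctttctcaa
Clec4e, chr6:123289872-123290121, minus strand: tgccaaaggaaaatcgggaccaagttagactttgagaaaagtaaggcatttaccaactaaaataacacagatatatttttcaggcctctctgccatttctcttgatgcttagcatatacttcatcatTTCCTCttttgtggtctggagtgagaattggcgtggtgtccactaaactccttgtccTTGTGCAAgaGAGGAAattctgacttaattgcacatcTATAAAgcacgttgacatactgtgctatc
Clec5a, chr6:40585806-40586055, minus strand: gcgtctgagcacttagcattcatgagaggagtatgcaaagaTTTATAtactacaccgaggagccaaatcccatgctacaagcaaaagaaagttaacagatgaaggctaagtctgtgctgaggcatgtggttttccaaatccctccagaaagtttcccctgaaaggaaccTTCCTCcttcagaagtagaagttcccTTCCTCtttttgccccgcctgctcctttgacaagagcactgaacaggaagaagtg
Clec4a3, chr6:122952394-122952643, plus strand: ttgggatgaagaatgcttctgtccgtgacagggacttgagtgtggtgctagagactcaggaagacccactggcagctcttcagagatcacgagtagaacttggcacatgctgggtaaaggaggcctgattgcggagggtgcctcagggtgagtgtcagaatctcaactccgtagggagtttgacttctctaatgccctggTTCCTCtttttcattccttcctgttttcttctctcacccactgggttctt

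Matches were searched on both strands, and the distances are those of a match's first base before the start. GAGGAA, a core that PU.1 and other ETS factors bind, was in 6 of the 9 windows, against 23.3% of 32817 windows of the same length over all genes. In Clec4e it began 123 and 56 bases before the start, and in Clec5a 81 and 55 bases before it. The single match lay at 240 bases in Clec4d and at 50 in Clec4a3. The C/EBP motif TTGCNNAA was in 2 windows (9.57% of all), in Clec4e at 66 bases and in Clec12a at 140. The TATA box letters TATAAA were in 4 (12.4%), in Clec4e at 29 bases and in Clec5a, on the opposite strand, at 209. The AP-1 motif TGANTCA was in 1, that of Clec12a (6.75%). An NF-kB motif (1.21% of all windows) and an interferon response motif (2.97%) were in none of the 9. No match overlapped another in the windows shown. The 2 Clec4a3 windows overlap, and the Clec4a1 and Clec4a3 windows share a stretch of similar sequence around a GAGGAA match. The 9 windows are therefore not independent. A match says only that the letters are there, and Clec4n and Clec10a were not searched.

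The sorted populations carried their own markers. The mean log2 intensity of 9 neutrophil markers was 13.08 to 14.34 on KO and 13.84 to 16.43 on WT neutrophil arrays, and at most 8.47 on the macrophage and WT microglia arrays. Of 10 monocyte and macrophage markers all were higher in macrophages than in microglia in both genotypes, where at most 11.8% of clusters were. All 9 measured microglia markers were lower in the other 2 cell types than in microglia, where at most 32.3% of clusters were. The mean of the monocyte and macrophage markers was 12.26 to 12.70 on KO and 11.66 to 12.69 on WT neutrophil arrays. It was 14.59 to 15.12 on KO and 14.69 to 14.96 on WT macrophage arrays, and at most 9.41 on microglia arrays. Some arrays stood apart. KO microglia 2 and 4 had neutrophil marker means of 10.42 and 8.23, against 6.43 to 7.31 on the other 4, and WT neutrophil 2 had the highest neutrophil marker mean (16.43). WT neutrophil 4 had a mean of 12.14 over 5 connective tissue markers, against 7.73 to 9.06 on KO and 8.84 to 9.63 on the other WT neutrophil arrays, and over all clusters KO neutrophil arrays correlated at 0.97 to 0.99 with each other and WT neutrophil arrays at 0.93 to 0.98. The median intensity per array lay between 83.7 and 120. Trem1 itself measured 15.98 ± 0.51 in KO and 17.20 ± 0.29 in WT neutrophils (SD, n = 5 and 4), a difference of -1.22 (SE 0.41, adjusted p = 0.0361 with limma), and its differences of -0.49 in macrophages and -1.25 in microglia did not pass. This cannot serve as a check of genotype, because the deleted exons are not given.

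Clec4d, Clec4e and Clec4n, the receptors that signal through the Fc receptor gamma chain, were high in neutrophils and macrophages and far lower in microglia. Clec4e, which recognises mycobacterial cord factor and the nuclear protein SAP130 released by dying cells, measured 15.19, 15.74, 15.87, 16.14 and 16.20 on the KO neutrophil arrays and 16.14, 16.88, 16.69 and 16.18 on the WT neutrophil arrays. In KO macrophages it ran from 14.50 to 15.51 with a median of 14.96, and WT macrophages had 15.67, 14.98 and 15.004. In microglia it lay between 7.52 and 8.93 in KO (median 7.96) and between 7.22 and 8.95 in WT (median 8.03). No microglia array came within 5 log2 units of any neutrophil or macrophage array. KO neutrophils exceeded KO microglia by 7.75 (SE 0.28, adjusted p = 5.17e-19), a 216-fold difference, and WT neutrophils exceeded WT microglia by 8.42 (SE 0.30, 2.2e-19), a 343-fold difference. Both folds are approximate, since Clec4e was not shown to be above background in microglia. These are sorted bulk samples, in which fewer cells of a type and less RNA per cell cannot be told apart.

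Clec4n, a receptor for fungal mannans, had 14.82, 15.27, 14.92, 14.49 and 12.97 on KO neutrophil arrays and 14.79, 14.66, 14.64 and 14.47 on WT neutrophil arrays. KO neutrophil 5 was the low array. Macrophage arrays had 13.25 to 14.56 in KO (median 14.01) and 13.80, 14.51 and 13.59 in WT. Microglia lay at 6.59 to 7.24 in KO and 6.196 to 8.17 in WT, around the median over all transcript clusters of 6.69. No detection calls were used here, so Clec4n was not shown to be above background in microglia and its differences from that cell type are approximate. They were 7.63 (SE 0.31) between KO neutrophils and KO microglia and 7.62 (SE 0.33) between WT neutrophils and WT microglia. Neutrophils and macrophages could not be separated for Clec4n, at 0.48 (95% interval -0.16 to 1.12, adjusted p = 0.251) in KO and 0.67 (-0.14 to 1.48, 0.156) in WT. Without KO neutrophil 5 the KO difference passed at 0.86 (adjusted p = 0.0172).

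Clec4d, which forms complexes with Clec4e on the cell surface, was in neutrophils at 16.71, 17.01, 17.02, 16.79 and 16.86 on KO arrays and 16.92, 17.29, 17.39 and 16.81 on WT arrays. Macrophages had 14.98 to 15.54 in KO (median 15.45) and 15.68, 15.60 and 15.22 in WT, below every neutrophil array. In microglia it lay on average further above the median cluster than the other 2 genes, at 10.27 to 11.59 in KO and 8.59 to 12.68 in WT. WT microglia 1 gave 8.59 and WT microglia 6 gave 12.68. Neutrophils exceeded macrophages by 1.503 in KO (SE 0.41, adjusted p = 0.00563) and by 1.60 in WT (SE 0.51, 0.0109). Clec4e showed the same order, by 0.87 in KO (SE 0.28, 0.0172) and 1.26 in WT (SE 0.35, 0.00414), although the lowest KO neutrophil array (15.19) was below the highest KO macrophage array (15.51). The KO call for Clec4e ended without KO neutrophil 5 (0.78, adjusted p = 0.0532). With a covariate for an array's level of broadly expressed genes the calls for Clec4e ended in KO (0.69, 0.194) and WT (0.85, 0.488), and that for Clec4d ended in WT (2.86, 0.0547). This level was lower on every neutrophil array than on any other array, so its part and that of cell type cannot be told apart.

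Clec5a, the DAP12-coupled receptor known in human for binding dengue virus, had another pattern, with little to separate macrophages from microglia. Its values were 12.17, 13.59, 13.06, 13.10 and 12.89 in KO neutrophils and 14.04, 14.85, 14.69 and 14.58 in WT neutrophils. KO macrophages had 12.45, 12.44, 12.49, 13.27, 12.65 and 13.14, and WT macrophages 13.25, 13.22 and 12.83. Microglia lay at 11.88 to 12.92 in KO and 11.98 to 12.80 in WT. All 4 WT neutrophil arrays were above every array of the other 5 groups, and WT macrophages lay just above WT microglia without overlap. The macrophage minus microglia difference was 0.40 in KO (95% interval -0.03 to 0.83, adjusted p = 0.126). It was 0.75 in WT (SE 0.26, 0.0222), a call that ended without WT macrophage 1 (0.0903) or WT macrophage 2 (0.0828).

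**Figure D1:**
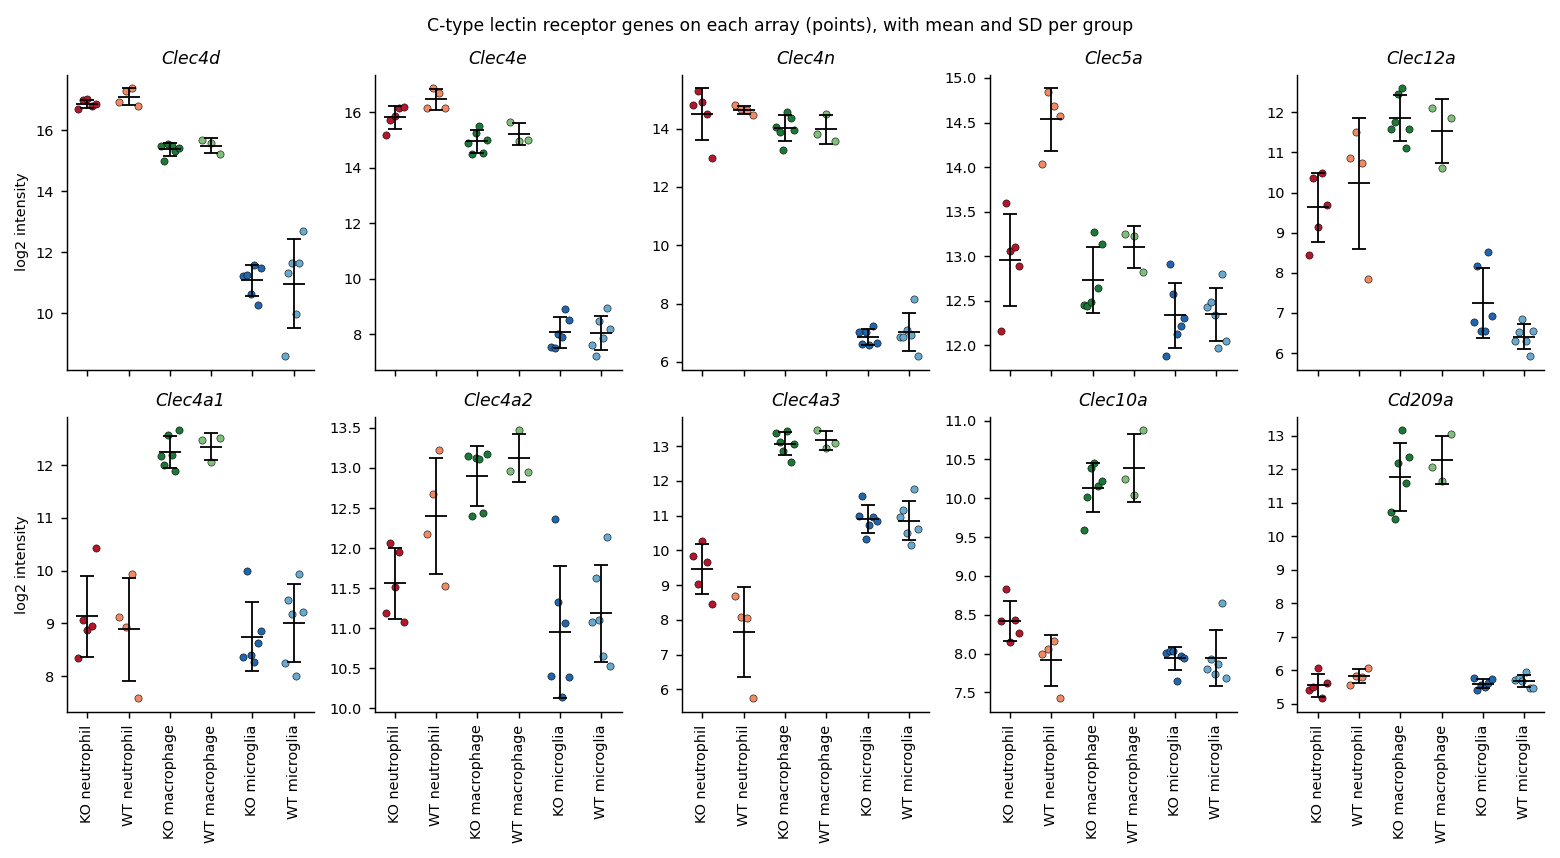
Log2 intensity of the 10 genes on each of the 30 arrays, by genotype and cell type; points are arrays in order of replicate number, horizontal lines the group means and bars the SD (n = 5, 4, 6, 3, 6 and 6 from left to right). Vertical scales differ between genes. Clec4d, Clec4e and Clec4n sit low in microglia, Clec4a1, Clec10a and Cd209a stand out in macrophages, and Clec5a is highest on the 4 WT neutrophil arrays.

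The inhibitory receptors were less alike. Clec12a, which restrains responses to uric acid crystals from dead cells, had 8.45, 10.37, 9.15, 10.48 and 9.69 on KO neutrophil arrays and 10.86, 11.50, 10.73 and 7.84 on WT neutrophil arrays, so WT neutrophil 4 was below every KO neutrophil array. It was 11.10 to 12.60 in KO macrophages (median 11.68) and 12.10, 10.62 and 11.86 in WT macrophages. In microglia it was 6.55 to 8.52 in KO (median 6.84) and 5.92 to 6.84 in WT (median 6.42), again around the median cluster. Macrophages exceeded microglia by 4.60 in KO (SE 0.46, adjusted p = 2.1e-09) and 5.12 in WT (SE 0.57, 2.27e-08). The neutrophil minus macrophage difference was -2.22 in KO (SE 0.49, 0.000829), whereas the WT difference of -1.30 did not pass (95% interval -2.55 to -0.04, adjusted p = 0.0768). The WT difference passed without WT neutrophil 2 (-1.72, 0.0244) or WT macrophage 2 (-1.75, 0.0376), and the KO call ended with a covariate for broadly expressed genes (-1.27, 0.136).

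Clec4a2, the mouse DCIR, was measured well above the median cluster everywhere. KO neutrophil arrays had 11.19, 12.06, 11.51, 11.95 and 11.08, and WT neutrophil arrays 12.18, 12.68, 13.22 and 11.53. Macrophages had 12.39 to 13.17 in KO (median 13.11) and 12.96, 13.47 and 12.95 in WT. Microglia ran from 10.14 to 12.36 in KO (median 10.74) and from 10.53 to 12.14 in WT (median 11.09), so the ranges of neutrophils and microglia overlapped. The neutrophil minus microglia difference was 0.61 in KO (95% interval -0.08 to 1.30, adjusted p = 0.144), and it passed without KO microglia 2 (0.89, 0.02). KO microglia 2 had the highest neutrophil marker mean among microglia, and its Clec4a2 value (12.36) was above every KO neutrophil array. The part of neutrophils in that value was not tested. In WT the difference was 1.21 (SE 0.36, 0.00541).

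Clec4a1 and Clec4a3, close relatives of Clec4a2 that lack its inhibitory motif, lie next to each other on the chromosome and were both brightest in macrophages. Clec4a1 measured 11.89 to 12.67 in KO macrophages (median 12.18) and 12.48, 12.06 and 12.52 in WT macrophages. Neutrophil arrays had 8.35, 9.06, 8.88, 8.94 and 10.43 in KO and 9.11, 8.93, 9.93 and 7.58 in WT, and microglia had 8.26 to 10.00 in KO and 8.00 to 9.93 in WT. Macrophages stood clear of neutrophils and microglia, which overlapped each other. The neutrophil minus microglia difference was 0.38 in KO (95% interval -0.39 to 1.16) and -0.12 in WT (-0.94 to 0.70).

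Clec4a3 separated all 3 cell types. It had 12.55 to 13.43 in KO macrophages (median 13.09) and 13.47, 12.94 and 13.11 in WT macrophages, then 10.33 to 11.56 in KO microglia (median 10.91) and 10.14 to 11.77 in WT microglia (median 10.78). Neutrophils were lowest, with 9.83, 9.03, 10.28, 9.68 and 8.47 in KO and 8.68, 8.08, 8.06 and 5.74 in WT. No neutrophil array reached the microglia of its own genotype. The neutrophil minus microglia difference was -1.45 in KO (SE 0.37, adjusted p = 0.00202) and -3.22 in WT (SE 0.39, 5.81e-08). With a covariate for each array's level of broadly expressed genes these became -0.14 (0.775) in KO and -0.45 (0.624) in WT, so both calls ended.

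The uptake receptors marked the macrophage arrays. Cd209a measured 10.72, 10.52, 12.20, 13.17, 11.59 and 12.37 in KO macrophages and 12.09, 11.67 and 13.07 in WT macrophages. In neutrophils it was 5.17 to 6.08 in KO and 5.56 to 6.07 in WT, and in microglia 5.42 to 5.77 in KO and 5.47 to 5.96 in WT, all below the median cluster and not shown to be above background. Macrophages exceeded microglia by 6.16 in KO (SE 0.30, adjusted p = 2.61e-16) and by 6.59 in WT (SE 0.36, 1e-14), approximate values for the same reason. The macrophage arrays themselves spread widely, with an SD of 1.02 in KO and 0.72 in WT. Clec10a, which binds galactose-type sugars, ran in a narrower range, at 9.59 to 10.46 in KO macrophages (median 10.19) and 10.24, 10.04 and 10.88 in WT macrophages. Neutrophil arrays had 8.41, 8.83, 8.15, 8.43 and 8.26 in KO and 8.00, 8.06, 8.16 and 7.42 in WT, and microglia had 7.64 to 8.04 in KO and 7.68 to 8.65 in WT. Macrophages exceeded microglia by 2.20 in KO (SE 0.18, 1.87e-11) and 2.44 in WT (SE 0.22, 2.75e-10).

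Markers of dendritic cells were also higher on the macrophage arrays. Of 10 such markers 8 were higher and 1 lower than in microglia in each genotype. Over all clusters 11.8% were higher and 31.4% lower in KO, and 9.62% higher and 27.9% lower in WT. The mean of the markers was 7.32 to 7.99 in KO macrophages and 7.54 to 8.22 in WT macrophages, against at most 6.59 in microglia of either genotype. The log2 of their summed intensity was 12.95 to 14.19 in KO and 13.32 to 14.48 in WT macrophages, against 11.29 to 12.002 in KO and 11.26 to 11.81 in WT microglia. No array value in the table was 0, the lowest intensity being 5.62. The part of dendritic cells in the Cd209a and Clec10a levels was not tested.

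Counted over the genes, macrophages exceeded microglia in 9 of 10 in KO, where 11.8% of the 22103 clusters were higher and 31.4% lower, and in 10 of 10 in WT, where 9.62% were higher and 27.9% lower. The KO exception was Clec5a. In WT every macrophage array lay above every microglia array for all 10 genes, a separation in that direction seen in 8.79% of clusters. The median difference of the 10 genes was 3.90 in KO and 3.93 in WT, against -0.21 and -0.25 over all clusters. Neutrophils against microglia gave 6 higher and 1 lower in each genotype, where 13% of clusters were higher and 32% lower in KO and 22% higher and 32.3% lower in WT. Clec4d, Clec4e, Clec4n, Clec5a and Clec12a were higher in both genotypes and Clec4a3 was lower in both. The sixth higher gene was Clec10a in KO (0.48, SE 0.19, adjusted p = 0.0357) and Clec4a2 in WT.

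The Clec10a call ended without KO neutrophil 1, KO neutrophil 2, KO neutrophil 4 or KO microglia 4 (adjusted p 0.0548 to 0.121), and with KO microglia 2 and 4 both left out (0.43, 0.105). It also ended with a trended robust prior (0.0524), with the replicate number as a block (0.0557) and with border-associated macrophage markers as a covariate (0.22, 0.676), and passed in 13 of 21 alternative settings. The Clec5a call in KO (0.62, SE 0.22, 0.0221) ended without KO neutrophil 2 (0.0965) or KO microglia 1 (0.0596), and with the covariate for broadly expressed genes (0.53, 0.165) or border-associated macrophage markers (0.97, 0.0619). The Clec12a call in KO ended with the border-associated macrophage covariate (2.07, 0.0781). Neutrophils against macrophages gave 2 higher and 6 lower in KO, where 15.9% of clusters were higher and 15.8% lower, and 3 higher and 4 lower in WT, where 29.6% were higher and 22% lower. Clec4d and Clec4e were higher in both genotypes and Clec5a in WT alone (1.44, SE 0.28, adjusted p = 0.00012, against 0.22, SE 0.22, 0.471 in KO). Clec4a1, Clec4a3, Clec10a and Cd209a were lower in both, with differences from -6.21 to -1.72 in KO and from -6.45 to -2.47 in WT. Clec4a2 and Clec12a passed in KO and not in WT. After adjustment for an array's broadly expressed genes, calls ended for Clec4a2 in KO (-0.86, 0.168) and for Clec4a1 (-2.68, 0.0578) and Clec5a (1.23, 0.153) in WT.

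In the order of the 6 group means, KO and WT of a cell type were neighbours for most genes. WT neutrophils came first for Clec4d, Clec4e, Clec4n and Clec5a, and macrophages first for the other 6, WT before KO except for Clec12a. Within macrophages and within microglia the KO and WT ranges overlapped for all 10 genes, so the order inside those pairs is not resolved. Over all clusters 2.92% in macrophages and 0.109% in microglia did not overlap. Microglia came last, in both genotypes, for Clec4d, Clec4e, Clec4n, Clec5a, Clec12a and Clec4a2. For Clec4a1, Clec10a and Cd209a the 4 neutrophil and microglia groups were close, with means within 0.51 of each other.

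Between genotypes, 2 of the 10 genes differed in neutrophils. Clec5a fell to a mean of 12.96 ± 0.52 (SD, n = 5) in KO neutrophils, against 14.54 ± 0.35 (n = 4) in WT, a difference of -1.58 (SE 0.25, adjusted p = 5.26e-05, 2.98-fold lower). All 5 KO arrays lay below all 4 WT arrays, a separation in this direction seen in 5.86% of clusters. Clec4a3 rose by 1.82 in KO neutrophils, to 9.46 ± 0.71, against 7.64 ± 1.30 in WT (SE 0.41, adjusted p = 0.00255, 3.53-fold higher). All 5 KO arrays were above the WT mean, but KO neutrophil 5 (8.47) was below WT neutrophil 1 (8.68). The background is high here, since 19.9% of all clusters passed in this comparison, 10.7% higher and 9.14% lower, so 2 of 10 is near the share over the array. Of all calls 54.0% were higher, against 71.6% when each array was centred on its median.

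The Clec5a difference ran from -1.74 to -1.38 as each array was left out, and passed in all 18 settings tried. No setting adjusted for the neutrophil markers. The Clec4a3 difference rests partly on WT neutrophil 4, the array with the connective tissue signal, and was 1.18 without it (adjusted p = 0.0174). Its call ended when the fit held neutrophil arrays alone (1.82, 0.091), with the broadly expressed genes as a covariate (0.26, 0.879), and with the mean of border-associated macrophage markers as a covariate (1.32, 0.203). The level of broadly expressed genes was 12.85 to 13.21 on KO and 12.42 to 12.91 on WT neutrophil arrays. Its part and that of genotype therefore cannot be told apart.

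Those markers moved with genotype on the neutrophil arrays, in a comparison where 10.7% of all clusters were higher and 9.14% lower. Of 10 markers of border-associated macrophages 6 were higher in KO neutrophils, among them Cbr2 (3.39) and Ms4a7 (2.08), and Lyve1 was lower (-0.87). Their mean was 10.18 to 11.57 on KO arrays and 9.36 to 9.89 on WT arrays, and the log2 of their summed intensity was 16.73 to 18.60 in KO and 15.78 to 17.24 in WT. Of 10 monocyte and macrophage markers 3 were higher, with a log2 sum of 17.41 to 17.99 in KO and 17.04 to 17.61 in WT. Of 9 neutrophil markers Retnlg (-1.98) and Stfa1 (-1.91) were lower, with a log2 sum of 18.62 to 19.50 in KO and 19.46 to 20.23 in WT. Of 5 connective tissue markers 3 were lower, with a median difference of -1.76 and a log2 sum of 10.56 to 13.35 in KO and 12.60 to 17.68 in WT. Of 7 measured T and NK cell markers 2 were lower, with a log2 sum of 7.39 to 7.67 in KO and 7.78 to 8.57 in WT. Among microglia and dendritic cell markers 1 each was lower, and 1 of 5 endothelial markers was higher, calls near the share over all clusters. Clec4a3 is brighter in macrophages than in neutrophils. Clec5a was 1.44 brighter in WT neutrophils than in WT macrophages (adjusted p = 0.00012 with limma). Its KO neutrophil mean was 12.96, against 12.74 in KO and 13.10 in WT macrophages. Beyond the covariate for border-associated macrophage markers, the part of these markers was not tested for either gene. With that covariate Clec5a passed at -1.33 (adjusted p = 0.0252). The mean of the border-associated macrophage markers was higher on every KO than on every WT neutrophil array, so its part and that of genotype cannot be told apart.

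**Figure D2:**
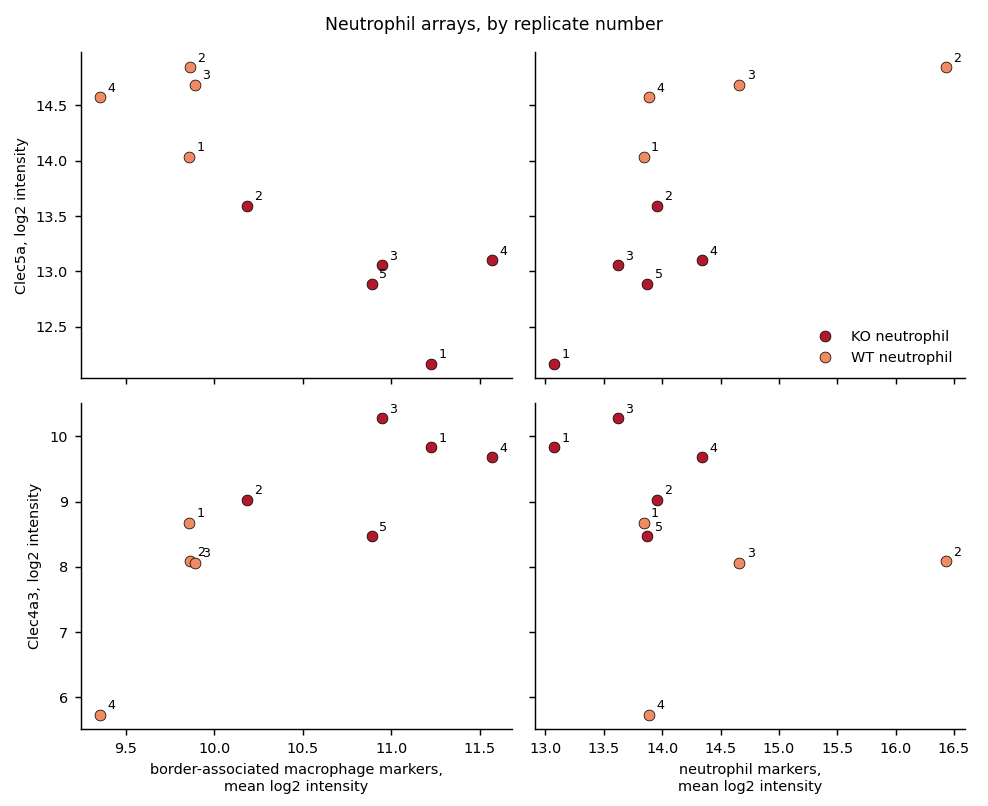
Log2 intensity of Clec5a (top) and Clec4a3 (bottom) on the 9 neutrophil arrays against the mean log2 intensity of 10 border-associated macrophage markers (left) and of 9 neutrophil markers (right); numbers are replicate numbers. The 5 KO arrays lie at 10.18 or more on the left axis and the 4 WT arrays at 9.89 or less, and WT neutrophil 4 is the lowest Clec4a3 point.

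The other 8 genes did not pass in KO against WT neutrophils, with adjusted p from 0.0797 to 0.792. Clec10a was at 0.51 (95% interval 0.09 to 0.93, adjusted p = 0.0797), above the WT mean on 5 of 5 KO arrays, and it passed when each array was centred on its median (0.62, 0.0388). Clec4a2 was at -0.84 (-1.61 to -0.08, 0.108) and Clec4e at -0.65 (-1.28 to -0.01, 0.137), each below the WT mean on all 5 KO arrays. Clec12a was at -0.60 (-1.71 to 0.50, 0.443), and without WT neutrophil 4 it passed at -1.40 (0.0388). For Clec4d the difference was -0.23 (-1.15 to 0.70), for Clec4n -0.15 (-0.86 to 0.56), for Clec4a1 0.24 (-0.61 to 1.10) and for Cd209a -0.27 (-0.97 to 0.44). With an unadjusted p under 0.05 there were 5 of the 10 genes and 34.5% of all clusters. The median of the 10 differences was -0.25, against -0.13 over all clusters.

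None of the 10 genes passed with limma between KO and WT macrophages or microglia, and none had an unadjusted p under 0.05. In macrophages 0.00452% of clusters passed and in microglia 0%. An unadjusted p under 0.05 was seen for 4.7% of clusters in macrophages and 2.9% in microglia, so none of 10 is near those shares. The macrophage differences ran from -0.51 for Cd209a (95% interval -1.25 to 0.23) to 0.32 for Clec12a (-0.84 to 1.48). Clec5a was at -0.36 (-0.89 to 0.17) and Clec4a3 at -0.10 (-0.99 to 0.78). With 3 WT arrays these intervals were 0.89 to 2.32 wide, and the Clec5a interval does not reach the difference of -1.58 seen in neutrophils. In microglia the differences ran from -0.26 for Clec4a1 (-0.995 to 0.48) to 0.84 for Clec12a (-0.11 to 1.79). Clec12a was above the WT mean on 6 of 6 KO microglia arrays, with KO microglia 2 (8.17) and KO microglia 5 (8.52) well above the other 4 (6.55 to 6.92). KO microglia 2 had the highest neutrophil marker mean of the microglia arrays and KO microglia 5 the lowest (6.43). KO microglia 5 also had the highest monocyte and macrophage marker mean (9.41) and border-associated macrophage marker mean (9.89) of the microglia arrays, and the part of these in the Clec12a value was not tested. The difference was 0.78 without KO microglia 2 and 4. Clec5a was at -0.01 (-0.44 to 0.42) and Clec4a3 at 0.05 (-0.68 to 0.77).

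**Figure D3:**
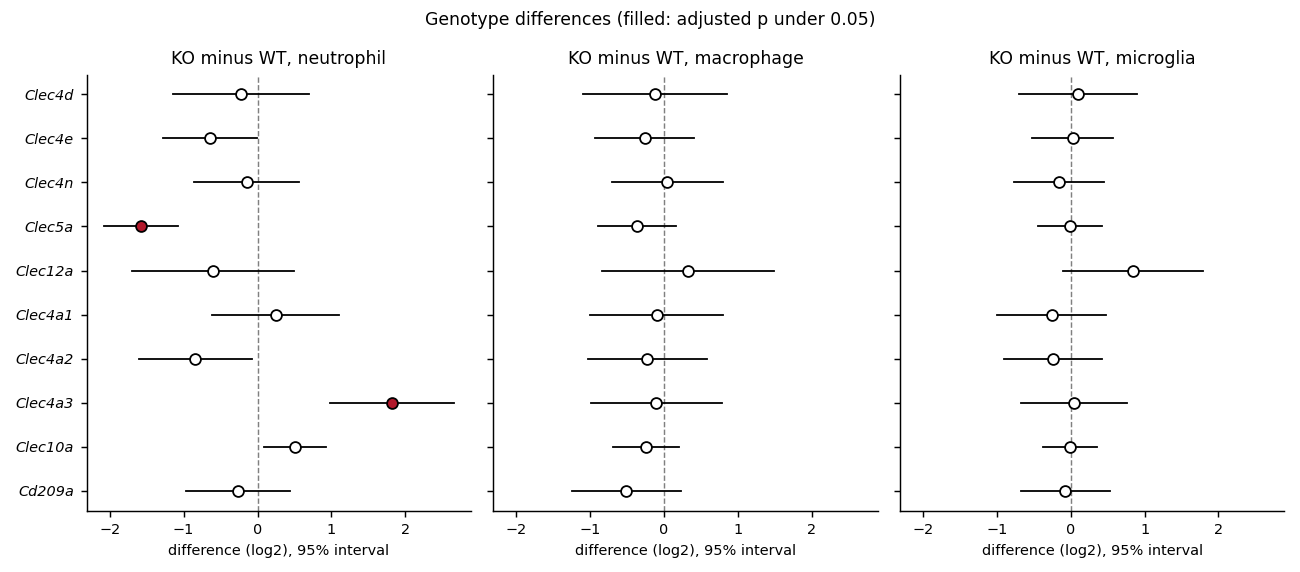
KO minus WT differences in log2 intensity for each gene in neutrophils, macrophages and microglia, with 95% intervals of the fit; filled points have an adjusted p under 0.05. In neutrophils Clec5a lies at -1.58 and Clec4a3 at 1.82, and no point is filled in macrophages or microglia.

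Whether the genotype difference itself differed between cell types was tested directly. For Clec5a it was 1.56 lower in neutrophils than in microglia (SE 0.32, adjusted p = 0.00423) and 1.21 lower than in macrophages (SE 0.36, 0.0377). For Clec4a3 it was 1.77 higher in neutrophils than in microglia (SE 0.54, 0.0484) and 1.92 higher than in macrophages (SE 0.60, 0.0476). Those were the 2 genes of 10 in both tests, in which 5.79% and 6.87% of clusters passed, and none passed between macrophages and microglia (0% of clusters). The neutrophil values enter both tests, so these are not separate evidence. Clec5a against microglia passed without each array in turn, and ended with the covariate for broadly expressed genes (-1.46, 0.09) or for border-associated macrophage markers (-1.31, 0.142). The others depended on single arrays. Clec4a3 against microglia ended without any 1 of 15 of 21 arrays (adjusted p 0.0504 to 0.126), and with 1 array left out passed only when KO neutrophil 2, KO neutrophil 5, WT neutrophil 1, WT neutrophil 2, KO microglia 2 or WT microglia 4 was that array. Clec4a3 against macrophages ended without 12 of 18 arrays (0.0542 to 0.104) and Clec5a against macrophages without 10 of 18 (0.0501 to 0.107). Clec12a against microglia, at -1.44 (adjusted p = 0.222), passed without WT neutrophil 4 (-2.24, 0.022).

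The partners of these receptors were followed by lists of the pathway. The shared adaptors did not pass in neutrophils, with Fcer1g, the Fc receptor gamma chain, at 13.90 ± 0.06 in KO and 14.08 ± 0.31 in WT neutrophils (SD, n = 5 and 4) and Tyrobp, which encodes DAP12, at 16.64 ± 0.12 in KO and 16.82 ± 0.12 in WT. Their differences were -0.17 (adjusted p = 0.436) and -0.18 (0.294). Of 15 measured adaptors and kinases, out of 18 listed, 2 rose and 4 fell in KO neutrophils, where 10.7% of all clusters rose and 9.14% fell. The 4 lower ones were Hcst, the gene of DAP10 (-1.05, SE 0.23, adjusted p = 0.00223), Bcl10, the partner of CARD9 (-0.85, SE 0.19, 0.00258), the kinase gene Syk (-0.84, SE 0.27, 0.0265) and the kinase gene Prkcd (-0.63). Plcg2 (1.09), a phospholipase gene, and Map3k7 (0.75), the gene of TAK1, were the higher ones. Card9 was at -0.62 (0.136). The list median was -0.23, against -0.13 over all clusters.

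Of the 3 phosphatases that inhibitory receptors recruit, Ptpn6, the gene of SHP1, fell (-0.61, SE 0.19, adjusted p = 0.025) and Ptpn11 was at 0.38 (0.325). Of 13 measured cytokines and enzymes induced through SYK and CARD9 2 fell, Il23a (-2.17, SE 0.60, 0.0113) and the transcription factor gene Egr2 (-1.10, SE 0.38, 0.0403), and none rose, where 9.14% of all clusters fell. Tnf (-1.29, adjusted p = 0.166), Il1b (-0.38, 0.549) and Cxcl2 (-0.49, 0.676) did not pass, nor did Sap130, the gene of the Mincle ligand (0.17, 0.662). The list median was -0.38, against -0.13 over all clusters.

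Among 29 measured other C-type lectin genes, out of 30 listed, 2 rose and 2 fell in KO neutrophils, where 10.7% of all clusters rose and 9.14% fell (19.9% in all). The list median was -0.15, against -0.13 over all clusters. Cd93, expressed on myeloid and endothelial cells, rose by 2.18 (SE 0.36, adjusted p = 0.000106) and Cd302 by 1.32 (SE 0.30, 0.00296). Olr1, the receptor for oxidised low-density lipoprotein, was at -1.51 (SE 0.44, 0.0167) and Clec2d at -1.18 (SE 0.35, 0.0179). Mrc1, the mannose receptor, was at 0.18 (0.849) and Mgl2, the neighbour and close relative of Clec10a, at 0.08 (0.788). Clec7a, the gene of Dectin-1, was not analysed here.

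In macrophages and microglia no member of these lists passed. The smallest p in macrophages belonged to Cd209c (-0.60, SE 0.20, adjusted p = 0.9) and Clec12b (0.43, SE 0.17, 0.998) among the lectins, Bcl10 (0.21) and Malt1 (-0.28) among the adaptors and kinases, Egr2 (-0.74) and Csf3 (0.26) among the induced genes, and Ptpn6 (0.16) and Inpp5d (0.06) among the phosphatases. In microglia they belonged to Cd207 (-0.24) and Clec2d (0.49), Bcl10 (-0.24) and Rel (-0.23), Il6 (0.88) and Egr2 (-0.30), and Inpp5d (-0.29) and Ptpn11 (-0.35). Every adjusted p of these was at least 0.9.

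Across the 30 arrays some of the genes varied together and others did not. Clec4e and Clec4n correlated at 0.98, Clec4d and Clec4e at 0.96 and Clec4d and Clec4n at 0.94, and Cd209a and Clec10a at 0.95, over arrays that differ mainly in cell type. With the group means removed the same pairs gave 0.08, 0.25, -0.06 and 0.39. Of the 45 pairs, 28 had a correlation above 0.5 across arrays and 17 did not. Clec4a3 was at -0.50 with Clec5a, the lowest, and at -0.20 with Clec4d, and Clec5a was at 0.01 with both Clec10a and Cd209a. Within groups 4 pairs were above 0.5, the highest being Clec4a2 with Clec5a at 0.66.

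Among 18432 other named genes the closest pattern to each was also given by Pearson correlation over the 30 arrays. It was Gda for Clec4e (0.99), Bst1 for Clec4d (0.98) and Cxcr4 for Clec4n (0.98), with Gda second for Clec4n. Siglece, an inhibitory lectin of myeloid cells from another family, was closest to Clec5a at 0.89. Clec4b1, which lies between Clec4a4 and Clec4a2 in the same gene row, was closest to Clec4a1 (0.94) and second closest to Clec10a (0.95, after Casp6, also 0.95). Klrb1b was closest to Cd209a (0.98), followed by Ms4a8a, and Ly6c2, a marker of inflammatory monocytes, was closest to Clec12a (0.95). Eif3f was closest to Clec4a3 (0.96), ahead of Ms4a6c, and Sub1 to Clec4a2 (0.89). The arrays share cell types and processing, so such values describe likeness of level only.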

How the data were processed

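The deposited table held linear intensities of 22103 transcript clusters on 30 arrays, which the authors made with RMA per the submitters' processing notes; its version and the genome build of the array are not given in the sources used here. Their log2 was taken with no pseudocount and no filter, from intensities deposited by the authors. The platform annotation gave 1 symbol to 19508 clusters and left 2595 unnamed, and the 10 genes matched RefSeq GRCm38.p6 by gene number. Every cluster got a limma 3.58.1 fit (R 4.3.3) over the 30 arrays, estimating each of the 6 groups separately with 24 residual degrees of freedom, and p-values were adjusted by Benjamini-Hochberg over all clusters of a comparison, with calls at an adjusted p under 0.05. Every adjusted p in the text is from limma, intervals are 95% intervals of that fit, and differences are log2 values. No 2 arrays of a group had identical values. The genes and lists were chosen with earlier results of these data known. Named genes were the 10 receptors, Trem1, selected partners and, per list and comparison of genotypes, the 2 with the smallest p; other list members and markers were named after their values were seen. The most similar genes were the highest Pearson correlations. Alternatives were quantile normalization, median centring, leaving out the dimmest 25% of clusters, weighted arrays, a trended robust prior, a fit of the compared groups alone, a covariate for the level of 2015 broadly expressed clusters, a block on replicate number, and leave-one-out over arrays; a border-associated macrophage covariate and leaving out KO microglia 2 and 4 were added after the data were seen. The 2015 clusters had a log2 of at least 11 on every macrophage and microglia array and similar means in WT macrophages and WT microglia. Neutrophil arrays did not enter that choice. The median level of these clusters was 12.42 to 12.91 on WT neutrophil arrays, 12.85 to 13.21 on KO neutrophil arrays and 13.26 to 13.49 on all others. The covariate therefore overlaps with the neutrophil comparisons. Proteins were not used here. Array outliers were looked for with the Dixon test. The fit was tested on simulated data. Promoter windows were cut to the 250 bases before the start. Figures were drawn with matplotlib 3.10.9.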

Additional observations from a re-analysis of the deposited data

Results flagged for a closer look

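In groups of 4 to 6 arrays, 4 of 50 tests found an array far from the others, where chance gives about 1 in 20. Clec4a1 was high on KO microglia 2 (10.00, against 8.26 to 8.85 on the other 5), the array that also had the highest neutrophil marker mean among microglia. KO neutrophil arrays had 8.35 to 10.43, and the part of neutrophils in the Clec4a1 value was not tested. Clec4d was low on KO macrophage 2 (14.98). Clec10a was low on KO microglia 4 (7.64) and high on WT microglia 5 (8.65).

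The change with genotype differed between cell types for 2 genes. For Clec5a it was -1.56 in neutrophils relative to microglia and -1.21 relative to macrophages. For Clec4a3 it was 1.77 relative to microglia and 1.92 relative to macrophages. All but the Clec5a value relative to microglia could be ended by leaving out 1 array.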

How the results depend on the processing

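Of 120 differences of the 10 genes over 12 comparisons, 54 passed. Among the 50 called in comparisons of 2 groups, 46 passed without each array in turn and 36 passed in every setting. Quantile normalization turned Clec10a in WT neutrophils minus WT microglia to 0.53 (adjusted p = 0.0222), against -0.03. Where neither fit passed, 42 differences changed sign between settings and 64 when an array was left out, none larger than 0.88.

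For KO against WT neutrophils the 2 calls became 1 with a fit of neutrophil arrays alone, with the broadly expressed genes as a covariate, and with the border-associated macrophage markers as a covariate; without single arrays there were 2 to 3. Over all clusters the count of 4390 became 1084, 474 and 558 in these 3 settings and 2883 to 5557 without single arrays, 2883 without KO neutrophil 1 and 2884 without WT neutrophil 4. The higher share of these calls was 54.0%. Centring, which sets the median of every array to 0, gave 71.6%. The share was 75.8% with neutrophil arrays alone and 74.6% with the border-associated macrophage covariate. The 2 calls on the difference between neutrophils and microglia became 1 after quantile normalization or with only the arrays compared, and 0 with either covariate; without single arrays there were 1 to 2. Those between neutrophils and macrophages became 1 after quantile normalization, centring or with the replicate block, and 0 with only the arrays compared or with either covariate, with 0 to 2 without single arrays. With the broadly expressed genes as a covariate neutrophils against macrophages had 5 calls in KO, against 8, and 3 in WT, against 7. With the border-associated macrophage covariate KO neutrophils against KO microglia had 4 calls, against 7. The causes were not tested.

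Same-numbered arrays of KO and WT neutrophils correlated from -0.20 to 0.26 in their deviations. KO and WT arrays come from different mice, so they cannot show whether cell types of 1 mouse share a number. Within a genotype, same-numbered arrays of different cell types averaged from -0.10 (WT neutrophils and macrophages) to 0.07 (KO neutrophils and microglia). Arrays of unlike numbers averaged 0.03 and -0.01 there. The labels do not say whether a number stands for 1 mouse. Apart from the count above, the replicate block ended the call of Clec10a in KO neutrophils against KO microglia (adjusted p = 0.0557). It also ended that of Clec4a3 in the difference between neutrophils and macrophages (0.089). Each gene had 1 transcript cluster, so the dimmest cluster could not be tried. No detection calls were used, which limits values near the median cluster, and 3 WT macrophage arrays limit that group.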
